A study of Mus musculus with 13 samples.

Results

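The genes described are 10 genes of extracellular matrix breakdown: the matrix metalloproteinases Mmp2, Mmp3, Mmp10, Mmp13 and Mmp14, the tissue inhibitors of metalloproteinases Timp1, Timp2 and Timp3, the cysteine protease gene Ctsk (cathepsin K) and Adamts1, a secreted metalloprotease with thrombospondin motifs. They were chosen by name, with earlier results of these data known, and are 10 of 19938 genes tested. Each was represented by 1 transcript cluster, the unit in which the array reports a gene. Primary mouse embryonic fibroblasts (MEF), a commercial preparation of connective tissue cells from mouse embryos, were grown in serum-containing medium and held at 32°C (mild hypothermia) or 37°C (normothermia). Neither the strain nor the age of the embryos is stated in the sources used here. The array at 0 h, kept at 37°C, was the start of both courses, and each temperature then had 1 array at 0.5, 1, 2, 4, 8 and 18 h, giving 13 Mouse Gene 1.0 ST arrays (Affymetrix) in all. Each array received the pooled RNA of 3 dishes and no condition was repeated, so every error below measures scatter about a fitted line or among same-time pairs of arrays, and this scatter may be technical. Values are the deposited intensities on a linear scale, used as log2 in the tests, and their precision is limited by how few arrays there are.

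Matrix metalloproteinases are zinc enzymes that cells secrete, or hold at their surface, as inactive precursors and that cleave collagens, proteoglycans and other matrix proteins once their propeptide is removed. TIMP proteins bind the active site of these enzymes and block it, and fibroblasts are a main source of both. Cathepsin K belongs to the papain-like cysteine proteases, works best in acidic surroundings, cleaves collagen, and is best known from osteoclasts, the cells that resorb bone.

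All 10 genes gave signal above the median of all genes tested (7.54 on the log2 scale), from a mean of 7.77 for Mmp10 to 12.97 for Timp1. The markers set down for fibroblasts (Col1a1, Col1a2, Col3a1, Pdgfra, Pdgfrb, Thy1, Dcn and Vim) lay above that median in 8 of 8 cases, and their summed intensity was 33167 to 37090 at 32°C and 35282 to 36206 at 37°C. Of 7 macrophage markers 1 lay above it (Cd68), and of 6 osteoclast markers 0 did. The medians of the 13 arrays spanned 0.046 on the log2 scale.

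Mmp13, Mmp3 and Mmp10 lie close together on mouse chromosome 9, in a run of 10 measured MMP genes that follow each other as Mmp13, Mmp12, Mmp1b, Mmp3, Mmp1a, Mmp10, Mmp8, Mmp27, Mmp20 and Mmp7. These 3 were the genes of the run with signal above the median of all genes, while the other 7 had mean log2 signals between 4.28 and 5.93. The promoters of the 3 are printed because their courses resembled each other, and that of Ctsk because its comparison passed the test. Each sequence covers 250 bases before to 50 bases after the annotated start (RefSeq, GRCm38.p6, plus strand), at chr9:7272264-7272563 for Mmp13, chr9:7445572-7445871 for Mmp3, chr9:7502092-7502391 for Mmp10 and chr3:95498960-95499259 for Ctsk. Capitals mark matches to TGANTCA, the motif bound by AP-1, the FOS and JUN transcription factor; the Ctsk sequence holds none.
Mmp13: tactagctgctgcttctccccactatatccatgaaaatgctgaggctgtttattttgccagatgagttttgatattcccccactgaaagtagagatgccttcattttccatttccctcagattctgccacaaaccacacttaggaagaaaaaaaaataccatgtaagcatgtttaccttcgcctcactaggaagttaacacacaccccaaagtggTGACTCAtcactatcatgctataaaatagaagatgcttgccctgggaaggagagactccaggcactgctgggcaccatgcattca
Mmp3: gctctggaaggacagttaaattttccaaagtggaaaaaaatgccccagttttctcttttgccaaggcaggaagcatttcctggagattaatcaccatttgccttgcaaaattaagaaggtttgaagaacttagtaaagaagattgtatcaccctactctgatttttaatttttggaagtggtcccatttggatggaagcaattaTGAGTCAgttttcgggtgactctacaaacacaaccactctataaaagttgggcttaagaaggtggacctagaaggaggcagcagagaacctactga
Mmp10: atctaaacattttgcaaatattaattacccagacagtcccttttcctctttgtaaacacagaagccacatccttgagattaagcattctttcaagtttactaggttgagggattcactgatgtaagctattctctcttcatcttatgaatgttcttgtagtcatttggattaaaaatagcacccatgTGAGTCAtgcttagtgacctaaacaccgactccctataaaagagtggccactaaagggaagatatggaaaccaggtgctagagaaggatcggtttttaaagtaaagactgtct
Ctsk: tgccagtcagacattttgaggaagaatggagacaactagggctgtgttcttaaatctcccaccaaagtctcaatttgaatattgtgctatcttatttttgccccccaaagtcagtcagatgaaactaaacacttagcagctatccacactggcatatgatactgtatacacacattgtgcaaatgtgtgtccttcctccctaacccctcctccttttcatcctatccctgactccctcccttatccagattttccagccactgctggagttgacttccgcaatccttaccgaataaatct

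With the annotated start counted as 0, the AP-1 match began at -35 in Mmp13, where it reads TGACTCA, at -46 in Mmp3 and at -63 in Mmp10, where it reads TGAGTCA in both. Promoters were available for 9 of the 10 genes, and 3 of the 9 held the motif, against 7.81% of the 32851 mouse promoters of this length. It was also found in 8 of the 10 promoters of the chromosome 9 run, the exceptions being Mmp8 and Mmp27. The letters TATAAA were found in Mmp3, Mmp10, Mmp13 and Adamts1, and in 13.6% of all promoters. The RUNX motif AACCACA was found in Mmp13, at -119, and in 5.27% of all promoters, and the PEA3 motif AGGAAG was found in Mmp3, Mmp13, Mmp14, Timp1, Timp3 and Ctsk, and in 35.4% of all promoters. Both strands were searched and no matches overlapped. A match is a string of letters and no evidence that a factor was bound.

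**Figure D1:**
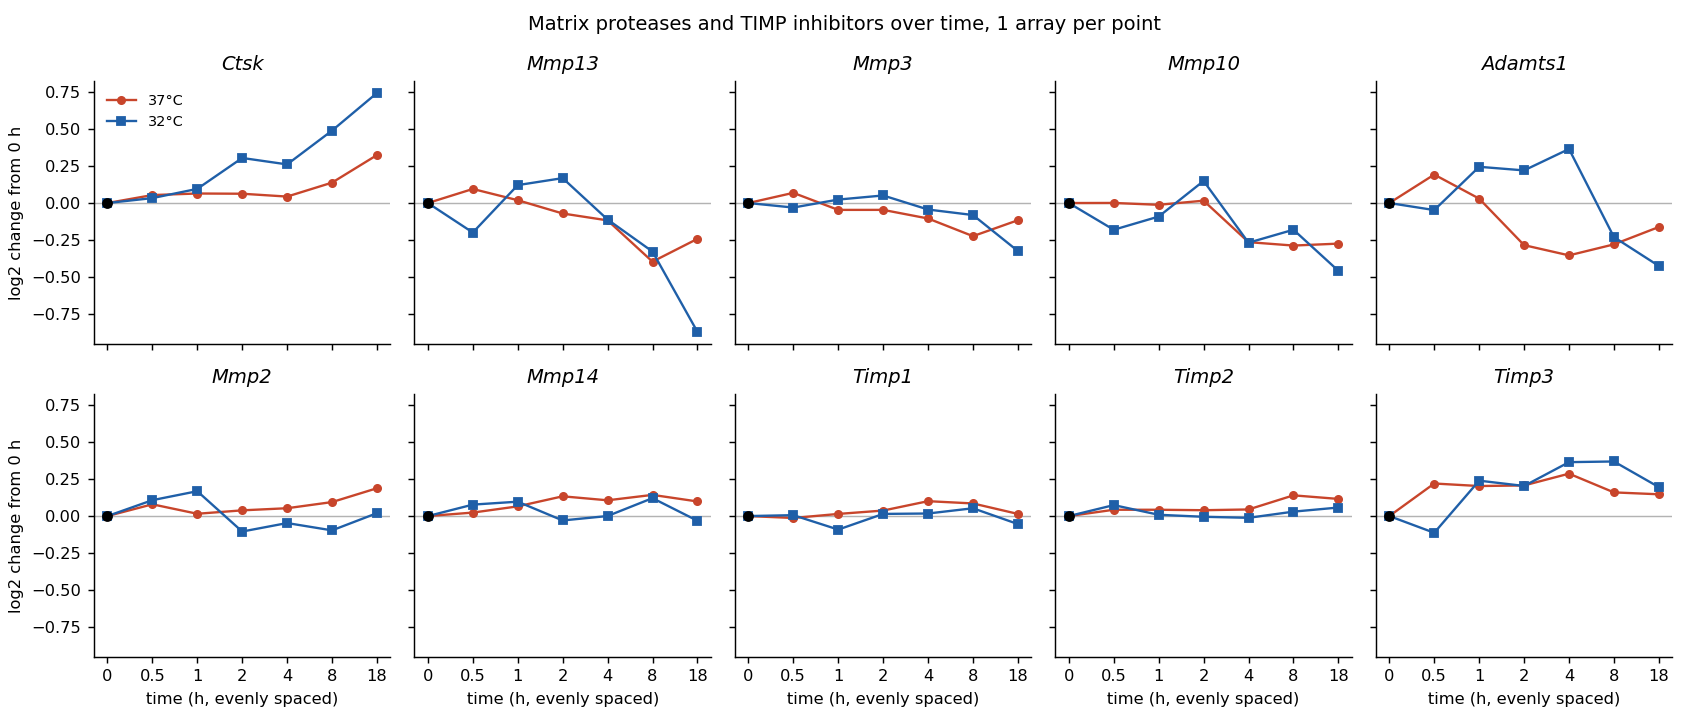
Log2 change from 0 h of each of the 10 genes against time in h, drawn evenly spaced, at 37°C and at 32°C. There was 1 array per point, and the array at 0 h was shared. Ctsk ended at 0.74 at 32°C and 0.32 at 37°C. For all 10 genes the range of values at 32°C, taken over all times, overlapped that at 37°C, and the share of all genes was not computed.

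Ctsk was the member that moved apart between the temperatures. Its intensity at 37°C was 592 at 0 h, 615 at 0.5 h, 619 at 1 h, 619 at 2 h, 610 at 4 h, 652 at 8 h and 741 at 18 h. At 32°C it was 606 at 0.5 h, 633 at 1 h, 731 at 2 h, 710 at 4 h, 831 at 8 h and 991 at 18 h. The first hour was alike at both temperatures, every array after 0 h lay above the start at either temperature, and the highest values were those at 18 h and 8 h at 32°C, followed by 18 h at 37°C. By 18 h the level was 1.67-fold that at 0 h at 32°C and 1.25-fold at 37°C.

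The log2 difference of Ctsk between 32°C and 37°C was -0.02 at 0.5 h, 0.03 at 1 h, 0.24 at 2 h, 0.22 at 4 h, 0.35 at 8 h and 0.42 at 18 h, so the gene was higher in the cold in 5 of 6 pairs. To ask whether a gene left its course at 37°C under cooling, the difference was fitted with limma as a line through 0 at 0 h over the order of the time points. This divergence was 0.065 ± 0.011 (SE) per time point for Ctsk (limma, adjusted p = 0.0184 over all genes). Among the 10 genes 1 passed, Ctsk, which was 134th of 19938 by p, against 2.83% of all genes tested, 1.17% with higher and 1.66% with lower values at 32°C. At an unadjusted p under 0.05 there was also 1 of the 10 genes, against 8.52% of all genes with higher and 9.89% with lower values, or 18.4% in all. The call was lost without the arrays at 4 h (adjusted p = 0.0587), 8 h (0.108) or 18 h (0.0859), and when 32°C was given its own term to take up any constant offset between the courses (adjusted p = 0.189, divergence 0.090).

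The mean difference of Ctsk at 4, 8 and 18 h was 0.33 ± 0.10 (SD, n = 3 pairs) on the log2 scale, or 1.26-fold, and all 3 late pairs were higher at 32°C (limma, adjusted p = 0.0449). In this late comparison again 1 of the 10 genes passed, against 2.95% of all genes, 0.802% with higher and 2.15% with lower values at 32°C. At an unadjusted p under 0.05 it was 1 of 10 as well, against 7.62% of all genes with higher and 10.8% with lower values. It was no longer called without the arrays at 0.5 h (adjusted p = 0.0583), 1 h (0.0779), 4 h (0.0665), 8 h (0.242) or 18 h (0.190), nor with only the arrays at 4, 8 and 18 h (0.0970) or on relative ranks (0.0907). In the early comparison, at 0.5, 1 and 2 h, 0 of the 10 genes and 0% of all genes passed with limma, and at an unadjusted p under 0.05 there were 0 of the 10 genes and 1453 of all genes (7.29%), of which 4.18% had higher and 3.1% lower values at 32°C.

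Over time at 32°C, Ctsk had a slope of 0.12 ± 0.018 (SE) log2 per time point (limma, adjusted p = 0.0550), which missed the threshold of 0.05, and 26th place of 19938 by p. At 37°C its slope was 0.040 ± 0.013 (adjusted p = 0.828). In the slope at 32°C 0 of the 10 genes and 0.0953% of all genes passed (0.0451% rising and 0.0502% falling), and in the slope at 37°C 0 of the 10 genes and 0%. Kendall's tau, the rank statistic that the study used on single probes, was 0.905 for Ctsk at 32°C, with 5 of 6 steps upward (exact 2-sided p = 0.00278, adjusted p = 0.260). A p as low was reached by 213 genes, and 0 genes passed after adjustment, against 880 rising and 945 falling at an unadjusted p under 0.05. The few arrays of a course set a lowest value that the exact p can reach. Adjustment over all genes is limited by that value, so no conclusion is drawn from the 0 genes or the adjusted p of Ctsk. The study, which tested single probes and combined them by gene, reported genes with a monotonic-like response at 32°C. The limma slope of Ctsk at 32°C was called with quantile normalization, among genes above the median signal (adjusted p = 0.0375) and on a time axis of log2(hours + 1) (adjusted p = 0.0170).

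The array cannot tell a larger share of cells that make Ctsk from more transcript per cell. The summed intensity of the 6 osteoclast markers (Acp5, Calcr, Oscar, Dcstamp, Ocstamp and Atp6v0d2) was 443 to 528 at 32°C, the highest value being that at 18 h, and 450 to 485 at 37°C. That of the 7 macrophage markers was 550 to 681 at 32°C, the highest again at 18 h, and 516 to 552 at 37°C. Of these, Cd68, a lysosomal membrane protein, ranged from 199 to 296 at 32°C and from 176 to 199 at 37°C. At 32°C and 18 h, where Ctsk was highest, 4 of the 6 osteoclast markers (Calcr, Oscar, Dcstamp and Ocstamp) lay above every array at 37°C. So did 5 of the 7 macrophage markers (Cd68, Csf1r, Adgre1, Itgam and Cd14), against 28.1% of all genes. Of 5 epithelial markers (Epcam, Cdh1, Krt8, Krt18 and Krt14) 3 did so too, and 1 (Krt14) lay below every array at 37°C. The count above was 1 of 5 for endothelial markers, 1 of 5 for cartilage and bone markers and 0 of 8 for fibroblast markers. On the array at 32°C and 18 h, Oscar stood at 109.6 against at most 98.7 at 37°C, Ocstamp at 125 against 115, and Csf1r at 104 against 86.3. The margin was small for Dcstamp (57.23 against 57.19), Itgam (48.8 against 48.5) and Cd14 (86.7 against 85.7). Acp5, an acid phosphatase of osteoclasts, stood at 136, within its range of 126 to 140 at 37°C. The part of such cells in the Ctsk result was not tested.

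**Figure D2:**
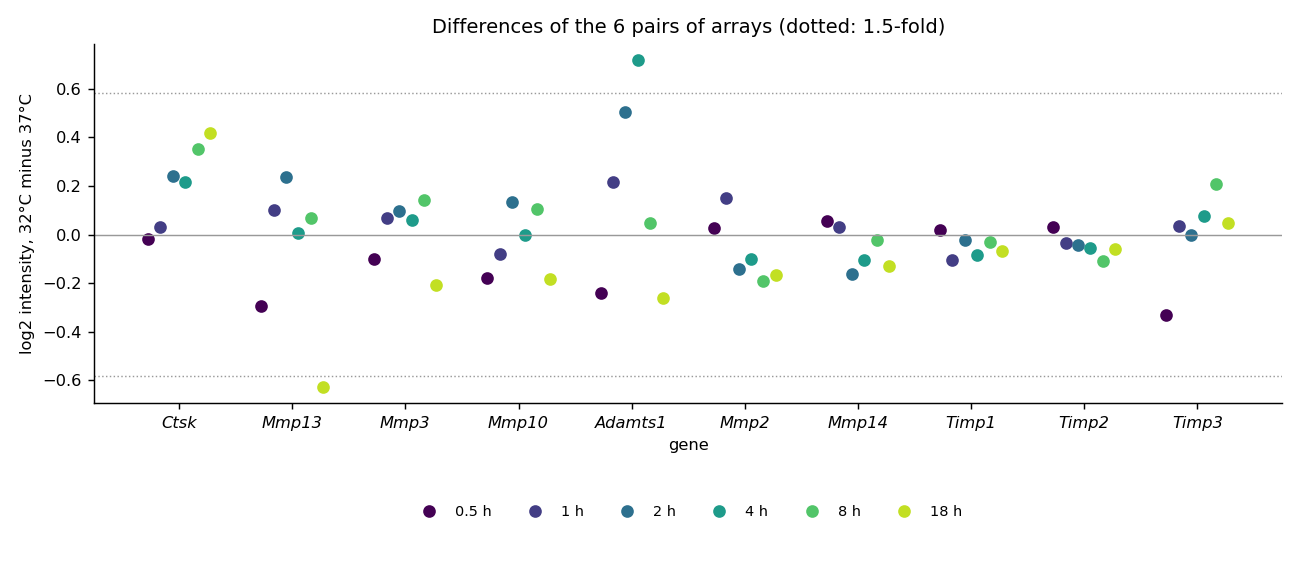
Log2 difference in intensity between 32°C and 37°C at each matched time from 0.5 to 18 h, 1 point per pair of arrays and gene. Ctsk climbed to 0.42 at 18 h, Adamts1 peaked at 0.72 at 4 h, and Mmp13 reached its lowest value, -0.63, at 18 h.

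Mmp13, the main interstitial collagenase of rodents, and the stromelysins Mmp3 and Mmp10, which cleave proteoglycans and other matrix proteins and can activate other metalloproteinase precursors, had lower signal at the end of both courses than at 0 h. Mmp13 had an intensity of 981 at 0 h and then, at 37°C, 1048 at 0.5 h, 994 at 1 h, 934 at 2 h, 905 at 4 h, 746 at 8 h and 830 at 18 h. At 32°C it was 855 at 0.5 h, 1067 at 1 h, 1103 at 2 h, 908 at 4 h, 782 at 8 h and 537 at 18 h. The highest array (32°C, 2 h) was 2.05-fold the lowest (32°C, 18 h), the widest range among the 10 genes. At 18 h the level was 0.547-fold that at 0 h at 32°C and 0.846-fold at 37°C. The summed intensity of 5 measured cartilage and bone markers (Acan, Col2a1, Sox9, Ibsp and Sp7) was also lowest of the 13 arrays at 32°C and 18 h. It was 1300 there against 1481 at 37°C, with Sox9, a transcription factor of cartilage and the brightest of the 5, at its lowest level of 692. The next lowest sums were 1349 at 37°C and 1 h and 1376 at 32°C and 2 h, where Mmp13 stood at 994 and 1103. At 32°C and 18 h, 1 of these 5 markers (Sox9) lay below every array at 37°C and 1 (Sp7) lay above, against 21.9% and 28.1% of all genes. The fibroblast sum was lowest on the same array, at 33167, with 4 of 8 markers (Col1a1, Col1a2, Col3a1 and Pdgfrb) below those at 37°C at any time and 0 above, against 21.9% and 28.1% of all genes. The part of these cells in the Mmp13 values was not tested.

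The last pair alone set the sign of the Mmp13 comparison. The log2 difference between 32°C and 37°C was -0.29 at 0.5 h, 0.10 at 1 h, 0.24 at 2 h, 0.01 at 4 h, 0.07 at 8 h and -0.63 at 18 h, where the level at 32°C was 0.647-fold that at 37°C. A difference at least that far below 0 at 18 h was shown by 1.54% of all genes. The divergence was -0.031 ± 0.024 (limma, adjusted p = 0.548), and without the arrays at 18 h it was 0.018. The late difference was -0.18 ± 0.38 (SD, n = 3 pairs), and without 18 h it was 0.037. No difference between the temperatures could be told from the spread between pairs.

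Mmp3 followed a like course at lower contrast. Its intensity was 581 at 0 h, then 610, 563, 563, 541, 498 and 536 from 0.5 to 18 h at 37°C, and 569, 591, 602, 564, 550 and 464 at 32°C. The lowest array was again 32°C at 18 h. Mmp10 had 241 at 0 h, then 241, 239, 244, 201, 198 and 199 at 37°C, and 213, 226, 267, 200, 213 and 176 at 32°C, so that at 37°C it stood at 198 to 201 from 4 h on. For both genes the divergence, 0.00042 and -0.0057, was below its standard error, and it turned sign under 6 of 13 alternatives for Mmp3 and 2 of 13 for Mmp10.

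**Figure D3:**
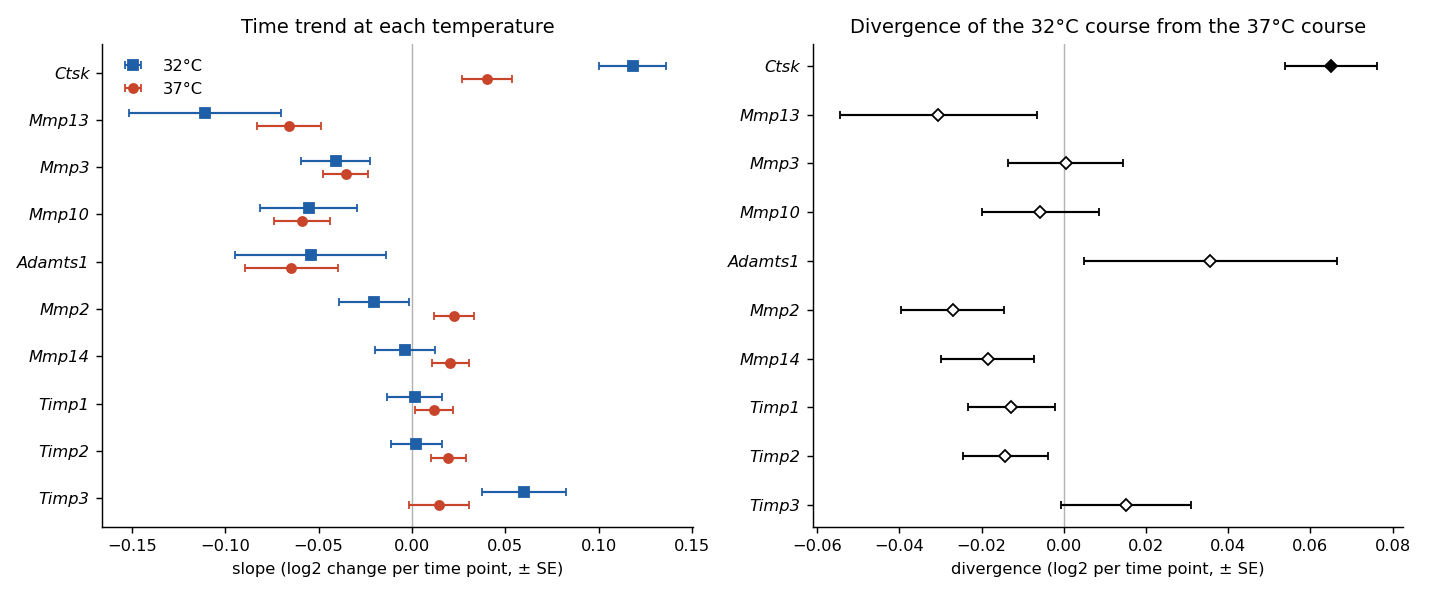
Left, slope of the log2 intensity per time point (± SE) over the 7 arrays of each course for the 10 genes. Right, divergence of the 32°C course from the 37°C course per time point (± SE), with the filled symbol for Ctsk, the gene that passed the test (0.065 ± 0.011).

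The time slopes of these 3 genes were negative at both temperatures. At 37°C they were -0.066 ± 0.017 log2 per time point for Mmp13, -0.035 ± 0.012 for Mmp3 and -0.059 ± 0.015 for Mmp10 (limma, unadjusted p = 0.00433, 0.0179 and 0.00382), and after adjustment over all genes none was called (adjusted p = 0.679, 0.828 and 0.677). At 32°C they were -0.11 ± 0.041, -0.041 ± 0.018 and -0.055 ± 0.026 in the same order (adjusted p = 0.221 for Mmp13). At an unadjusted p under 0.05, 5 of the 10 genes counted at 37°C, of which 4 were falling (Mmp3, Mmp10, Mmp13 and Adamts1) and 1 was rising (Ctsk), against 5.79% of all genes, 2.18% falling and 3.61% rising. At 32°C the corresponding counts were 1 falling (Mmp13) and 2 rising (Ctsk and Timp3), against 9.35% and 7.14% of all genes, or 16.5% in all. These counts are no test of the 10 genes as a set. The genes were chosen with earlier results of these data known, and Mmp3, Mmp10 and Mmp13 had courses that resembled each other. Both courses contain the same array at 0 h, so their slopes are not independent of each other.

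Across the 13 arrays, Mmp3 and Mmp13 were correlated at a Pearson's r of 0.94, Mmp10 and Mmp13 at 0.84, and Mmp3 and Mmp10 at 0.84. Mmp3 and Mmp13 were the pair with the highest r among the 45 pairs of the 10 genes, and Ctsk and Mmp13 had the lowest, -0.73. The 13 points share cultures, array processing and time order, and these values describe the courses without a test. Among all genes the courses most like that of Mmp13 were those of Scn7a (r = 0.99), Adgrl4 (0.95) and Matn2 (0.94). For Mmp3 they were Prelid2 (0.94), Mmp13 (0.94) and Bend6 (0.94), and for Mmp10 Ifi203 (0.94), Bst1 (0.94) and Adgrl4 (0.91), so that Adgrl4 was near the top for Mmp13 and for Mmp10. For Ctsk they were Maoa (0.96), a monoamine oxidase, C1ql3 (0.94) and Camta1 (0.94). For Mmp2 they were Adam23 (0.94), Ap5z1 (0.94) and Fbxo10 (0.92), and for Mmp14 Slc6a8 (0.91), Znrf1 (0.90) and Arhgef17 (0.88). Among the inhibitors, Timp1 was most like Cib4 (0.93), Olfr311 (0.92) and Tax1bp3 (0.87), Timp2 most like Trnp1 (0.89), Tagln (0.87) and S100a3 (0.86), and Timp3 most like Rnf103 (0.94), Usp7 (0.92) and Cwc22 (0.89).

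Adamts1, whose protease cleaves the large proteoglycans aggrecan and versican, peaked at different times in the 2 courses. At 37°C its intensity was 2447 at 0 h, 2796 at 0.5 h, 2498 at 1 h, 2009 at 2 h, 1916 at 4 h, 2017 at 8 h and 2188 at 18 h. At 32°C it was 2368 at 0.5 h, 2899 at 1 h, 2851 at 2 h, 3151 at 4 h, 2087 at 8 h and 1823 at 18 h. The highest array at 37°C was thus that at 0.5 h and the highest at 32°C that at 4 h, while the lowest were those at 4 h and at 18 h. The log2 difference rose from -0.24 at 0.5 h over 0.21 at 1 h and 0.50 at 2 h to 0.72 at 4 h, then stood at 0.05 at 8 h and -0.26 at 18 h.

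At 4 h Adamts1 was 1.64-fold higher at 32°C, a size that 35 genes (0.176% of all, this one included) reached in that direction, and with 1 array on each side this has no replicate check. Among the 10 genes, the pairs beyond 1.5-fold were Adamts1 at 4 h and Mmp13 at 18 h. At 4 h 0.401% of all genes were that much higher at 32°C, and at 18 h 1.94% were that much lower. These shares each cover 1 time and 1 direction, and the share of all genes beyond 1.5-fold at any time was not computed. Over the whole course the divergence of Adamts1 was 0.036 ± 0.031 (limma, adjusted p = 0.591), and the late difference of 0.17 ± 0.50 (SD, n = 3 pairs) was -0.11 without 4 h. A line over time order does not describe a course that peaks and falls. The courses most like it across the 13 arrays were those of Klf4 (r = 0.91), a zinc finger transcription factor, Zfp827 (0.90) and Tshz1 (0.88).

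Mmp2 (gelatinase A, which cleaves denatured collagen and basement membrane collagen) and Mmp14 (a membrane-bound metalloproteinase that activates the Mmp2 precursor, with Timp2 as adapter) varied little. Mmp2 had an intensity of 2947 at 0 h, then 3114, 2979, 3027, 3057, 3146 and 3356 from 0.5 to 18 h at 37°C and 3174, 3311, 2741, 2852, 2756 and 2987 at 32°C. It was higher at 32°C in the first pairs, at 0.5 and 1 h, and lower in the other 4. The late difference was -0.15 ± 0.047 (SD, n = 3 pairs; limma, adjusted p = 0.281), and the divergence was -0.027 ± 0.012 (adjusted p = 0.279). Mmp14 stayed between 2618 and 2955 on all 13 arrays, a 1.13-fold range, was lower at 32°C in 4 of 6 pairs, and had a divergence of -0.019 ± 0.011 (adjusted p = 0.427).

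Timp1 and Timp2 were, with Mmp14, the steadiest of the 10 genes. Timp1, a secreted inhibitor that acts weakly on membrane-bound metalloproteinases, stayed between 7463 and 8524, a 1.14-fold range, and was lower at 32°C in 5 of 6 pairs. Timp2 stayed between 6093 and 6770, a 1.11-fold range, the smallest of the 10, and was likewise lower at 32°C in 5 of 6 pairs. Their late differences were -0.061 ± 0.026 and -0.075 ± 0.030 (SD, n = 3 pairs), with divergences of -0.013 and -0.014, neither of which passed the test. In the late pairs, Mmp2, Mmp14, Timp1 and Timp2 were each lower at 32°C in 3 of 3, and none of the 4 was called. Timp3 and Ctsk were each higher in 3 of 3. The share of all genes lower in 3 of 3 was not computed. Differences as low as those of the 4 in single late pairs were shown by 13.5% (Mmp2 at 8 h) to 44.3% (Mmp14 at 8 h) of all genes. The fibroblast sum was likewise lower at 32°C in these pairs, at 33167 to 34033 against 35282 to 35955, and its part in the differences was not tested.

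Timp3, the inhibitor that binds to the matrix and also blocks aggrecan-cleaving ADAMTS proteases and the sheddase Adam17, ran the other way late. Its intensity was 3851 at 0 h, then 4485, 4432, 4445, 4697, 4302 and 4264 from 0.5 to 18 h at 37°C and 3561, 4545, 4434, 4957, 4972 and 4410 at 32°C. The array at 0.5 h and 32°C was the lowest of all 13, and those at 4 and 8 h and 32°C were the highest. The late difference was 0.11 ± 0.085 (SD, n = 3 pairs), the divergence 0.015, and the slope at 32°C 0.060 ± 0.022 (limma, adjusted p = 0.229), none of which passed.

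Over the 10 genes the median divergence was -0.0093 log2 per time point, against 0.0020 for all genes, and the median late difference was -0.044 against 0.0099. The range of values at 32°C, taken over all times, overlapped that at 37°C after 0 h in 10 of the 10 genes, Ctsk included. The share of all genes with such an overlap was not computed, so this count sets the 10 genes apart from no others.

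**Figure D4:**
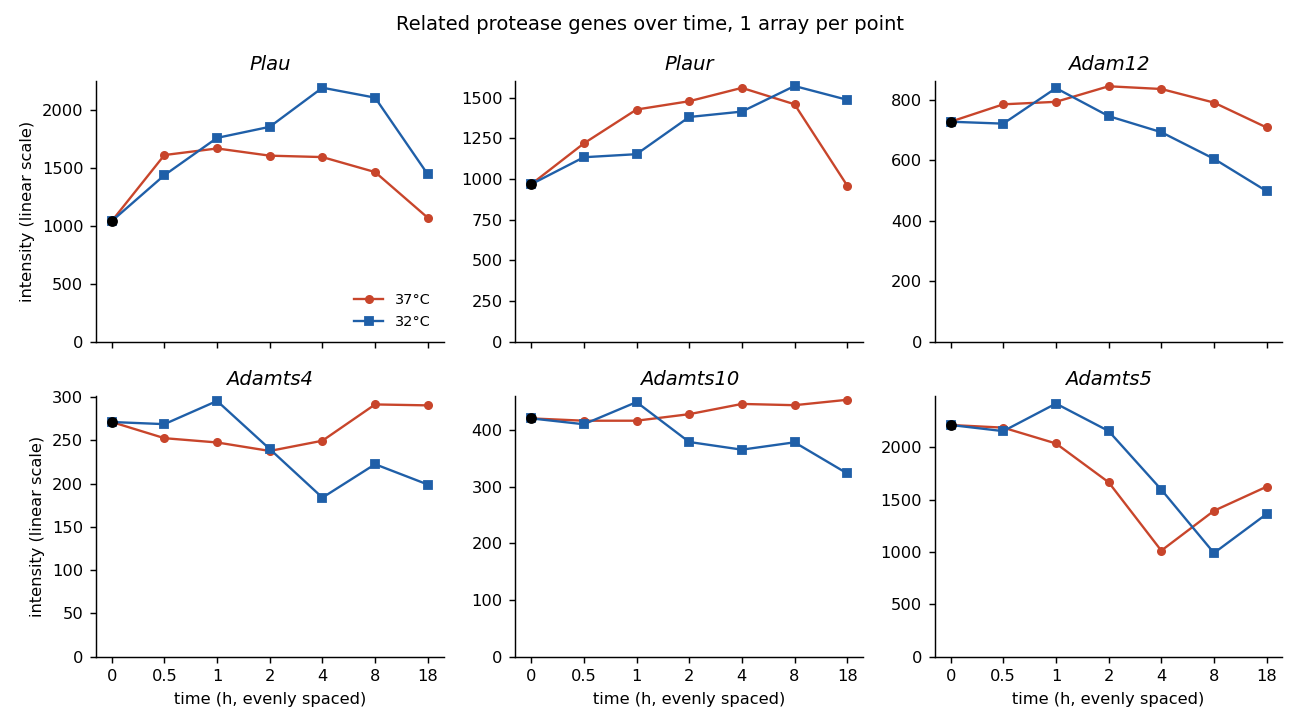
Intensity (linear scale, axis from 0) of 6 related protease genes over time in h at 37°C and 32°C, 1 array per point. Plau stood at 2195 at 4 h and 32°C against 1596 at 37°C, Adam12 ended at 498 against 709, and Adamts5 reached its lowest level at 8 h at 32°C and at 4 h at 37°C.

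Around these genes, 8 lists of related proteases and inhibitors held 72 genes, of which 68 were measured. In the divergence, where 2.83% of all genes passed, 3 of the 68 did, namely Plau (higher at 32°C), Adam12 and Adamts10 (both lower). Among other metalloproteinases 0 of 17 passed (Mmp20, the enamel protease, had the lowest p, with a divergence of 0.032 and an adjusted p of 0.181). Among other inhibitors 0 of 3 passed (Timp4, 0.018, adjusted p = 0.648), among proprotein convertases, which remove propeptides, 0 of 4 (Pcsk5, 0.031, adjusted p = 0.324), and among cystatins, the inhibitors of cysteine cathepsins, 0 of 4 (Cst7, 0.019, adjusted p = 0.554). All these tests are limma's.

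Of the 9 other cysteine cathepsins, lysosomal proteases of the same family as Ctsk, 0 passed in the divergence. The difference between Ctsk and each of them was not tested. Ctsh had the lowest p, with a divergence of 0.042 ± 0.014 (limma, adjusted p = 0.132). At an unadjusted p under 0.05 the list held 1 gene with higher and 1 with lower values at 32°C, near the 8.52% and 9.89% of all genes, and its median divergence was 0.0076 against 0.0020 for all genes.

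Plau encodes urokinase, the protease that turns plasminogen into plasmin, which can in turn activate metalloproteinase precursors. Its intensity was 1042 at 0 h, then 1613, 1670, 1608, 1596, 1466 and 1071 from 0.5 to 18 h at 37°C and 1439, 1762, 1857, 2195, 2109 and 1447 at 32°C. It was above its start on every later array, and from 1 h on it was higher at 32°C. The divergence was 0.084 ± 0.014 (limma, adjusted p = 0.0183) and the late difference 0.47 ± 0.076 (SE; adjusted p = 0.0211). The call on the divergence was lost without 4 h (adjusted p = 0.0613), 8 h (0.108) or 18 h (0.0624), on relative ranks (0.0562) and with 32°C given its own term (0.145), and that on the late difference without 4 h (0.0502), 8 h (0.159) or 18 h (0.0781), on relative ranks (0.0739) and with the late arrays only (0.0639). Plau was the 1 gene of 6 measured in plasminogen activation to pass, against 2.83% of all genes (1.17% higher at 32°C), and all 6 had divergences above 0, with a median of 0.013 against 0.0020 for all genes.

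Adam12, a membrane-bound metalloprotease that sheds cell surface proteins, had an intensity of 728 at 0 h, then 786, 794, 845, 836, 791 and 709 from 0.5 to 18 h at 37°C and 722, 839, 747, 693, 605 and 498 at 32°C. From 2 h on each value at 32°C was below the one before, and below its partner at 37°C. The divergence was -0.072 ± 0.013 (limma, adjusted p = 0.0188) and the late difference -0.39 ± 0.074 (SE; adjusted p = 0.0325). The call on the divergence was lost without 4 h (0.0612), 8 h (0.109) or 18 h (0.106) and with 32°C given its own term (0.213), and that on the late difference without 8 h (0.186) or 18 h (0.139), on relative ranks (0.0872) and with the late arrays only (0.0848). Of the 8 sheddases measured, 1 passed, against 2.83% of all genes (1.66% lower at 32°C), and 7 had divergences below 0, as did 46.2% of all genes. The median was -0.025 against 0.0020.

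Among the 17 other ADAMTS proteases, Adamts10 passed in the divergence and Adamts4 in the late difference, both lower at 32°C, against 1.66% and 2.15% of all genes that were lower in these comparisons. Adamts4, which cleaves aggrecan like Adamts1, had an intensity of 271 at 0 h, then 252, 248, 238, 250, 291 and 290 from 0.5 to 18 h at 37°C and 269, 295, 240, 184, 222 and 199 at 32°C, with a late difference of -0.46 ± 0.068 (SE; limma, adjusted p = 0.0166). The 3 late arrays at 32°C were the lowest of all 13. The call was lost without 8 h (0.102) or 18 h (0.0781), on relative ranks (0.0587) and with the late arrays only (0.0714). Adamts10, a protease linked to fibrillin microfibrils, had 421 at 0 h, then 417, 417, 428, 446, 444 and 454 at 37°C and 410, 450, 379, 366, 379 and 324 at 32°C, with a divergence of -0.061 ± 0.013 (limma, adjusted p = 0.0414). That call was lost without 0.5, 2, 4, 8 or 18 h (0.0632 to 0.205), on relative ranks (0.0598) and with 32°C given its own term (0.211).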

How the data were processed

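Primary MEFs were held at 32°C or 37°C for 0 to 18 h, and RNA pooled from 3 dishes was hybridized to each of 13 arrays. The authors deposited intensity values on a linear scale for 28853 transcript clusters, from 4.24 to 18146. The summarization and normalization behind these values are not given in the sources used here. Values were log2 transformed without a pseudocount. Gene names came from the platform annotation, in which 21789 transcript clusters carried 1 symbol (21698 matched by Entrez identifier) and 1621 with several symbols were left out. The brightest transcript cluster by mean over the arrays stood for each of 19938 genes.

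Models were fitted with limma 3.58.1 (lmFit, eBayes) in R 4.3.3, with figures from matplotlib 3.10.9, and were tested on simulated data. The divergence is the coefficient of 32°C times time order (0 to 6) in a model that blocks on time point and gives 32°C no term of its own. Late (4, 8 and 18 h) and early (0.5, 1 and 2 h) differences came from 1 further fit, and slopes were fitted for each course. P-values were 2-sided, Benjamini-Hochberg adjustment covered all genes, and the threshold was 0.05.

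The 10 genes, the lists and the tests were chosen with earlier results of these data known. Named in the text are all 10 genes, list genes past the threshold (up to 4 a list, otherwise the 1 with the lowest p in the divergence) and the 3 genes most like each of the 10 by Pearson's r. Adamts5, Plaur and Cst6 were named after their values were seen. Alternatives were quantile normalization, relative ranks, a pseudocount of 16, genes above the median signal, all transcript clusters, another time axis, a separate term for 32°C, late arrays only, Kendall's tau and leaving out each time point.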

Additional observations from a re-analysis of the deposited data

Results flagged for a closer look

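The divergence of Ctsk differed between the temperatures, by a test of the difference itself (limma, adjusted p = 0.018373). Its coefficient was 0.065 ± 0.011 (SE) per time point, with 5 of 6 pairs higher at 32°C, and it lay between 0.062 and 0.067 when single time points from 0.5 to 18 h were left out. No group held more than 1 array per time, so no value could be set against replicates.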

How the results depend on the processing

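The labels give no replicate numbers, and arrays of both temperatures were paired by time point, the block in every comparison between them. Of the 10 genes, the number called in the divergence (1) was 0 to 1 when single time points were left out and 0 once 32°C had its own term. The number called in the late difference (1) was 0 to 1 when single time points were left out, and 0 on relative ranks and with the arrays at 4, 8 and 18 h only. The number called in the slope at 32°C (0) was 1, Ctsk, with quantile normalization, among genes above the median signal and on the time axis of log2(hours + 1). Leaving out time points kept the number called at 0 in the early difference and in both slopes.

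Some small values changed sign. Mmp3 had a late difference of 0.043 after quantile normalization and 0.504 on relative ranks, and a divergence of -0.0034 on the log2 time axis and -0.010 with the separate term, under which Mmp10 had 0.012 and Adamts1 -0.011. Timp3 at 37°C had a Kendall's tau of -0.0476. With time points left out, the divergence ranged from -0.010 to 0.023 for Mmp3, -0.016 to 0.011 for Mmp10 and -0.047 to 0.018 for Mmp13. The late difference ranged from -0.074 to 0.10 for Mmp3, -0.094 to 0.052 for Mmp10, -0.31 to 0.037 for Mmp13 and -0.11 to 0.38 for Adamts1. The slope at 32°C ranged from -0.0044 to 0.012 for Timp1, -0.0035 to 0.0079 for Timp2, -0.013 to 0.0071 for Mmp14 and -0.090 to 0.0018 for Adamts1, and the slope at 37°C from -0.012 to 0.029 for Timp3.

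Over all genes the 565 calls in the divergence became 167 on relative ranks, 4 with the separate term and 40 to 627 without single time points. The 588 late calls became 0 on relative ranks, 4 with the late arrays only and 0 to 490 without single time points. The cause was not tested. With 1 array per condition and no detection calls, precision is limited by the number of arrays.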

Other observations

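Plaur, the cell surface receptor of urokinase, had an intensity of 967 at 0 h, then 1218, 1426, 1478, 1560, 1459 and 959 from 0.5 to 18 h at 37°C and 1133, 1152, 1381, 1414, 1571 and 1486 at 32°C. It was back at its starting level at 18 h at 37°C and still above it at 32°C. The slope at 32°C was 0.11 ± 0.018 log2 per time point (limma, adjusted p = 0.0565), which missed the threshold.

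Adamts5, an aggrecan-cleaving relative of Adamts1, had 2212 at 0 h, then 2187, 2036, 1666, 1013, 1393 and 1623 at 37°C and 2153, 2416, 2154, 1596, 990 and 1363 at 32°C. The lowest array was that at 4 h at 37°C and that at 8 h at 32°C, at nearly the same level. Its slope at 32°C was -0.18 per time point (limma, adjusted p = 0.102), and it was not called in any of the 5 comparisons. Whether the time of the minimum differs between the temperatures was not tested, since each time was measured on 1 array.

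In the early comparison, at 0.5, 1 and 2 h, 0 of the 68 related genes and 0 of all 19938 genes passed with limma. Cst6, a cystatin, had the lowest p among the cystatins there (limma, unadjusted p = 0.00169, adjusted p = 0.471) and was 71st of 19938 genes by p.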
